A study of Homo sapiens with 8 samples.

Results

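ADGRB1, its binding partners BAIAP2 and BAIAP3, and the GTPase gene RAC3 all carried conserved γ-H2AX peaks after TRAIP degradation, and the positions of these peaks differed from gene to gene. RAC3 had 2 peaks, on either side of its transcription start site (TSS), BAIAP2 and BAIAP3 each had 1 at the TSS, and ADGRB1 had none within 2 kb of any annotated start but 2 inside the gene. The 4 genes were chosen by the presence of a peak in the list itself, so that having a peak is a description and no finding. Over the genome, 440 of 20033 protein-coding genes (2.20%) had a peak within 2 kb of the TSS. A peak was assigned to a gene when it was the one nearest to the 5′ end of the gene or lay within 2 kb of the start of any of its transcripts, which gave 5 of the 546 conserved peaks. The list holds slightly more peaks than the number of common peaks that the paper states. A further 2 peaks lie in the bodies of ADGRB1 and BAIAP2 and are described as well, which makes 7.

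The peaks come from HCT116 cells, a human colorectal cancer cell line, in which the TRAIP protein carries an auxin-inducible degron (TRAIP-mAID). The cells constitutively express the plant F-box protein OsTIR1, so that auxin (IAA) leads to degradation of the ubiquitin ligase, and the controls without IAA carry the same degron. Cells were arrested in G1 with 20 μM lovastatin for 24 hours and released with 2 mM mevalonic acid, and entered S phase about 12 hours later. Where given, IAA was added before the release, and the cells were harvested after S-phase entry, in late S phase. γ-H2AX, the phosphorylated histone variant that marks DNA damage signalling, and total H2AX were each precipitated from cells given IAA and from cells not given it. These are 4 groups of 2 repeats, 8 samples in all. The study describes the repeats as biological and independent of each other. What was analysed is the list of positions called with IAA over without IAA in both repeats. It holds no height and no value per sample, so the depth behind a peak is unknown here, no peak can be given an error, and the peaks could not be compared between the repeats. Separately, the paper measured γ-H2AX by ChIP with PCR at selected TSS, RAC3 and BAIAP2 among them, and reports an increase after TRAIP degradation. It lists p-values for other genes only, and these measurements were not analysed here.

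ADGRB1 (BAI1) is an adhesion G protein-coupled receptor, best known from the brain, whose extracellular part carries thrombospondin repeats and which binds phosphatidylserine on dying cells. Through the ELMO adaptors and the exchange factor DOCK1 it activates Rac, a small GTPase that switches on actin assembly when bound to GTP. BAIAP2 (IRSp53) bends membranes with its I-BAR domain and connects Rac and CDC42 to the WAVE complex, which nucleates actin through ARP2/3. BAIAP3 is a C2 domain protein of the MUNC13 family that acts in vesicle release, and RAC3 is a Rac protein closely related to RAC1 and RAC2. Expression of these genes in HCT116 cells was not analysed here.

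The sequences under the peaks show what the positions alone do not, namely how densely CpG sites were packed there. They are printed from the hg38 reference in the direction of transcription, without stretches annotated as UTR and up to 300 bases each, with every CpG in capitals. The upstream RAC3 peak is shown at chr17:82031152-82031421 (plus strand), and below it the stretch of RAC2 (chr22:37259851-37260120, minus strand) at the same distance before the TSS, from 526 to 257 bp, as this paralogue had no peak. The RAC3 stretch held 31 CpG sites in 270 bases and that of RAC2 5. RAC2 was the poorest in CpG sites of the paralogues over the whole promoter and does not stand for them all, since the same stretch held 4 sites at ADGRB2 but 20 at ADGRB3, while the value of RAC1 is not given here. The RAC2 stretch is placed from the outermost annotated 5′ end, which is 15325 bp from the start of the canonical transcript, and from that start it held 4 sites.
RAC3, upstream peak: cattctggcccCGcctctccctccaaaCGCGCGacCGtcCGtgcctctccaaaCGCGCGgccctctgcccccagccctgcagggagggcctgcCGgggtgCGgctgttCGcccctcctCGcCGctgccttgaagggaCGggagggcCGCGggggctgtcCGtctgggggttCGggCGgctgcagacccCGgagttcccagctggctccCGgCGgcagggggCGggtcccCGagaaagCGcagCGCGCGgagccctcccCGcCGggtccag
RAC2, same distance: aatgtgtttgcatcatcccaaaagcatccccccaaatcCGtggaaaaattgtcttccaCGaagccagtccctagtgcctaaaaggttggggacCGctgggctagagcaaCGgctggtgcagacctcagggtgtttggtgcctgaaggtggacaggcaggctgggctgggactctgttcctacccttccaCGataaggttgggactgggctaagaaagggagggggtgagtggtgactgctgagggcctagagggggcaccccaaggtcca

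The downstream RAC3 peak (chr17:82031762-82032060 shown, 42 CpG sites in 299 bases) and the BAIAP2 peak (chr17:81035309-81035608 shown, 43 CpG sites in 300 bases) run from the first exon into the first intron, of which the BAIAP2 stretch shown holds intron only, and the BAIAP3 peak (chr16:1333228-1333515, whole, 29 CpG sites in 288 bases) lies before the gene. The peak inside the BAIAP2 gene (chr17:81101539-81101754, whole) is shown with them because it was the exception, with 8 CpG sites in 216 bases.
RAC3, downstream peak: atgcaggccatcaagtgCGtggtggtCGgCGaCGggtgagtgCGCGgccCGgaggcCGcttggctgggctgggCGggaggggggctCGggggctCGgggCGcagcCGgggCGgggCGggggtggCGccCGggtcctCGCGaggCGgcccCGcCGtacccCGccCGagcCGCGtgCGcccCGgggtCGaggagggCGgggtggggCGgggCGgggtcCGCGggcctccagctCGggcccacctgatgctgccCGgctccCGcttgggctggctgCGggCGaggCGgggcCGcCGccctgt
BAIAP2, peak at the TSS: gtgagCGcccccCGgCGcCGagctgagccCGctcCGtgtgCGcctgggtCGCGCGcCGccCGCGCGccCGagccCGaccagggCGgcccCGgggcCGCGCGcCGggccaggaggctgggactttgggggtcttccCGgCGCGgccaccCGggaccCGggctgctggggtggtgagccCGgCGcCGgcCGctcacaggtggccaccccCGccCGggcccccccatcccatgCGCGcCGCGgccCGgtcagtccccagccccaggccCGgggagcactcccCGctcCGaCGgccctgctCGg
BAIAP3, peak: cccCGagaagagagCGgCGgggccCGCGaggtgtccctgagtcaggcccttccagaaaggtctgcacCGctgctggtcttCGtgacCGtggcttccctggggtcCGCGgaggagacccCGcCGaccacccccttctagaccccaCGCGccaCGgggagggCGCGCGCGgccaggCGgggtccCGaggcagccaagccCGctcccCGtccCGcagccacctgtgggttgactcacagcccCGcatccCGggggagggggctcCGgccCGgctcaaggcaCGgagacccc
BAIAP2, peak in the gene body: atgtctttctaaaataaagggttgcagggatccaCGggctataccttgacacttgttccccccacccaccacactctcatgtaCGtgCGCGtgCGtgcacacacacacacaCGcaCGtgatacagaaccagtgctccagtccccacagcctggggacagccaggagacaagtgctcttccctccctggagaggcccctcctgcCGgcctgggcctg

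The first question was where each peak lies on its gene. RAC3 (ENSG00000169750) is a short gene of 2527 bp on the plus strand of chromosome 17, annotated from 82031678 to 82034204. Its upstream peak, 274 bp wide, ran from 82031148 to 82031421 and ended 257 bp before the TSS. Its downstream peak, 405 bp wide, ran from 82031684 to 82032088 and began 6 bp after the TSS. Of the downstream peak, 113 bp lay in the first exon, 35 bp of them coding, and the rest in the first intron. The TSS therefore fell in the gap between the peaks, which was 262 bp long. The upstream peak also touched the end of LRRC45, a gene on the same strand that ends at 82031151, but lay 7843 bp from the start of LRRC45. No start on the opposite strand is annotated within 1 kb upstream of RAC3. An annotation does not show which strands are transcribed in these cells. The paper lists primers for RAC3 and BAIAP2 among the TSS that it selected as bi-directional.

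Peaks in pairs were rare in the list. Only 10 of 20033 protein-coding genes (0.0499%, 95% Wilson interval 0.0271 to 0.0919%, counting error only) had 2 or more peaks within 2 kb of the TSS, and RAC3 was looked at because it is among them. The other genes were MAP3K2 (gap of 236 bp), CACNA1H (222 bp), USF2 (3 peaks, smallest gap 171 bp), PARD3 (143 bp), LCOR (429 bp), AGPAT3 (492 bp), MRPS6 and SLC5A3, which share the same pair (531 bp), and CCDC85C (776 bp). Among these genes, MAP3K2, a kinase of the MAP kinase cascade, and CACNA1H, a T-type calcium channel subunit, had the gaps nearest in size to that of RAC3, with differences of 26 and 40 bp. Over 2 kb from the outermost 5′ end of its gene, the 2 peaks of NFIC were 256 bp apart. Over the whole list, 12 pairs of neighbouring peaks were under 1 kb apart, with gaps from 143 to 776 bp, and in 8 of them the start of an annotated transcript lay in the gap, as at RAC3. The gap at RAC3 had a GC content of 85.9%, above the 75.5% of its upstream and the 82.7% of its downstream peak. The gap was richer in GC than both of its peaks in 3 of the 12 pairs.

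BAIAP2 (ENSG00000175866), on the plus strand of chromosome 17 from 81035122 to 81117434, had its peak at the TSS from 81035242 to 81035709. At 468 bp this was the widest of the 7 peaks, wider than 84.8% of the list. It began 120 bp after the TSS and covered 67 bp of the first exon, 54 bp of them coding, before it entered the first intron. BAIAP2 was the only one of the 4 genes with an annotated opposite start within 1 kb upstream, that of the long non-coding RNA gene BAIAP2-DT, 241 bp away and 361 bp from the peak. Among the paralogues without a peak, ADGRB3 also had one, that of ADGRB3-DT, 113 bp away. The other BAIAP2 peak, 216 bp wide, lay from 81101539 to 81101754 in intron 7 of the canonical transcript. It was 2248 bp from the nearest annotated transcript start and so fell just outside the 2 kb window, whereas the farthest peak inside the window, the upstream peak of RAC3, was 257 bp from a start. The gap between the BAIAP2 peaks was 65829 bp.

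BAIAP3 (ENSG00000007516), on the plus strand of chromosome 16 from 1333638 to 1349439, had a single peak of 288 bp from 1333228 to 1333515. It ended 123 bp before the TSS. The upstream peaks of BAIAP3 and RAC3 had their midpoints 267 and 394 bp before the TSS, while the midpoints of the BAIAP2 peak and of the downstream RAC3 peak were 353 and 208 bp after it. Of the 402 peaks within 2 kb of the TSS of a protein-coding gene, 145 (36.1%) had the midpoint upstream, with a median offset of 150 bp downstream.

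ADGRB1 (ENSG00000181790) differed from the other 3 genes. It is annotated on the plus strand of chromosome 8 from 142449430 to 142545009, and its nearest peak, from 142452992 to 142453231 and 240 bp wide, began 3562 bp after the outermost 5′ end and 3343 bp after the start of the canonical transcript, inside the first intron. The second peak, from 142511001 to 142511276 and 276 bp wide, lay 57769 bp further on, across the end of exon 18 and the start of intron 18, with 73 bp of coding sequence. The nearest annotated transcript start was 31881 bp from it. A position of this kind was uncommon, since 30 of the 546 peaks (5.49%) lay in a protein-coding gene but over 2 kb away from any annotated transcript start. Both ADGRB1 peaks and the gene body peak of BAIAP2 are among these 30. Only 21 of 20033 protein-coding genes (0.105%, Wilson interval 0.0686 to 0.160%) had 2 or more peaks in the gene extended by 2 kb, and 6 of these had a gap of over 10 kb. BAIAP2 and ADGRB1 had the second and the third widest gap among the 21.

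**Figure D1:**
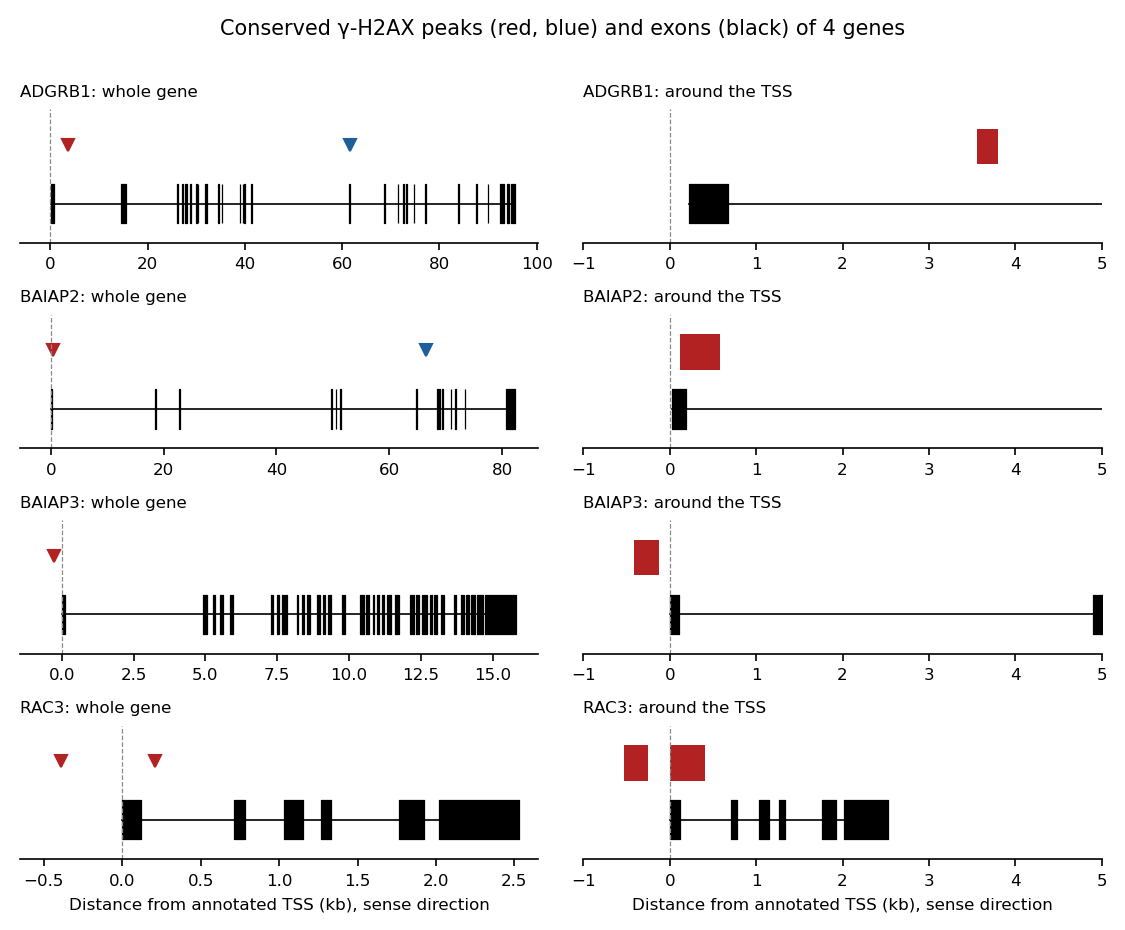
Each row is a gene, drawn over its whole canonical transcript (left) and from 1 kb before to 5 kb after the annotated TSS (right), with distance in kb on the horizontal axis, exons as black boxes and the TSS as a dashed line. Red marks peaks assigned by the rule and blue the further peaks in the gene body (triangles at left mark midpoints, boxes at right are to scale), and the RAC3 peaks can be seen on either side of the TSS, while the nearest ADGRB1 peak starts 3562 bp after it.

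The second question was what the peaks share in sequence, which the choice of genes did not use. GC content is a property of the reference and has no replicate error. In 6 of the 7 peaks it lay between 74.3 and 82.7%. The median of the list was 79.0%, with quartiles of 76.2 and 81.9%, and 3 of these 6 peaks lay within the quartiles, while those at BAIAP3 and upstream of RAC3 were lower and that downstream of RAC3 was higher. It was 74.3% at BAIAP3, 75.5% and 82.7% at the upstream and downstream RAC3 peaks, 78.8% at the BAIAP2 TSS, and 80.0% and 80.1% at the first and second ADGRB1 peaks. The ADGRB1 peaks inside the gene were thus as rich in GC as those at the starts of the other genes. CpG sites followed the same order only in part. The first ADGRB1 peak had the highest density, with 17.1 sites per 100 bp, against a median of 14.4 over the list, and BAIAP3 had 10.1.

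The peak in the BAIAP2 gene body stood apart. Its GC content was 59.3%, and only 3 of the 546 peaks (0.549%) had less. With 3.70 CpG sites per 100 bp and an observed to expected CpG ratio of 0.440, against a median of 0.953 over the list, it did not have the composition of a CpG island. It contained a run of 7 copies of the dinucleotide CA, and 33 of the 546 peaks (6.04%) had as their longest tandem repeat one of a unit of 2 bases that was at least as long. The first ADGRB1 peak held the longest perfect tandem repeat of the 7, with 5 copies of a unit of 4 bases, CCGC, and 42 of the 546 peaks (7.69%) had a tandem repeat of at least that length of 20 bp. No peak of the 4 genes matched another place in hg38 at 90% identity over 80% of its length.

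**Figure D2:**
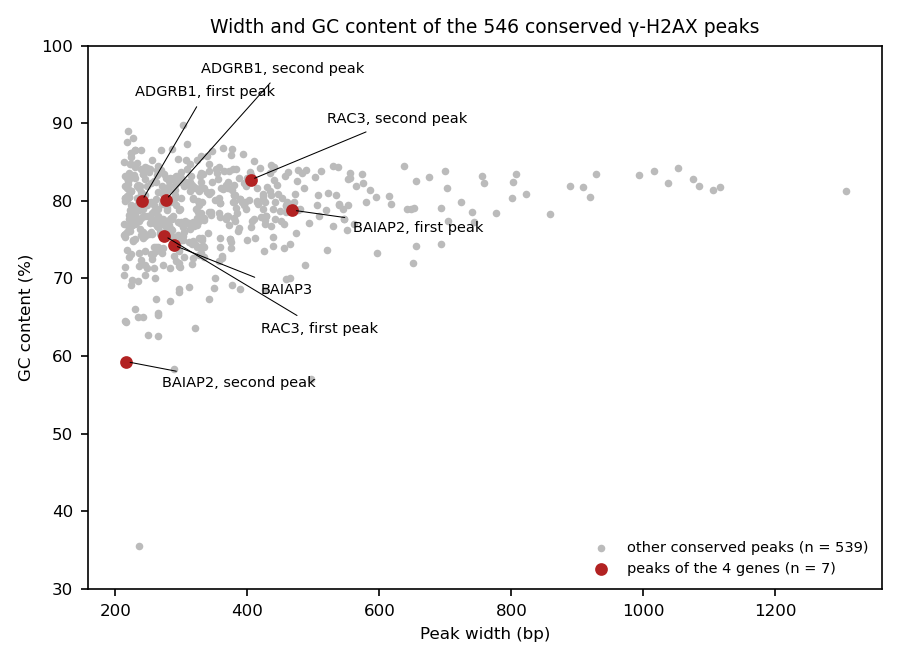
Each point is a conserved peak, with its width in bp on the horizontal axis and its GC content in percent on the vertical axis, and the 7 peaks of the 4 genes are red. The second BAIAP2 peak lies at 59.3%, below nearly all others, whereas the other 6 red points lie between 74.3 and 82.7%.

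GC skew compares G with C on the sense strand, and a positive value means more G than C on the strand that has the sequence of the RNA. At RAC3 it was -0.0435 in the upstream peak and 0.110 in the downstream peak, so that it changed sign across the TSS. The BAIAP2 peak at the TSS (-0.0515) and the BAIAP3 peak (-0.0561) had slightly more C. At ADGRB1 it was -0.125 in the first peak and 0.113 in the second. Among the 402 peaks within 2 kb of a protein-coding TSS the median was 0.0147, with quartiles of -0.0577 and 0.101. The gene body peak of BAIAP2 had a skew of -0.203. The size of the skew depended on the window, since in 300 bp around the midpoint it was -0.104 in the gene body peak of BAIAP2, -0.108 in its peak at the TSS and 0.152 in the downstream RAC3 peak, while no peak changed sign.

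A G-quadruplex pattern (at least 4 runs of GGG or longer, separated by 1 to 7 bases, searched on both strands) was present in the central 300 bp of 5 of the 7 peaks, against 382 of all 546 (Wilson interval 66.0 to 73.7%) and 29.6% of windows of the same length at 20032 protein-coding TSS. The downstream RAC3 peak held 3 such patterns on the sense and 1 on the antisense strand over its full width, and the upstream peak 1 on the sense strand. The BAIAP2 peak at the TSS and the first ADGRB1 peak each had 2 on the antisense strand, and the second ADGRB1 peak had 2 on the sense strand. Over their full width, BAIAP3 and the gene body peak of BAIAP2 had none. The GC box, GGGCGG on either strand, the sequence bound by SP1, occurred 7 times in the downstream RAC3 peak, 3 times at BAIAP2, 2 times in the upstream RAC3 and the first ADGRB1 peak, 1 time in the second ADGRB1 peak and not at BAIAP3 or in the gene body of BAIAP2. In the central 300 bp, 6 of the 7 peaks (85.7%), 93.2% of all peaks and 54.3% of the windows at protein-coding TSS contained it. A match to these letters is a description and does not show a folded structure or a bound factor.

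The third question was how the paralogues without a peak differ. RAC1 is the Rac protein found in most tissues, RAC2 is that of blood cells, and ADGRB2 and ADGRB3 are receptors of the same family as ADGRB1, mainly of the brain. These genes were chosen for having no peak, so the distances are given as a description. The nearest peak lay 600478 bp from the TSS of RAC1 and 259971 bp from that of RAC2. It was 2527216 bp from the TSS of ADGRB2 and 2630638 bp from that of ADGRB3. The median over 19970 protein-coding TSS on chromosomes with a peak was 1393 kb, so RAC1 and RAC2 were nearer to a peak than most genes and the other 2 farther away.

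Within 1 kb on either side of the TSS, the 4 genes with peaks were richer in GC than the 4 paralogues. RAC3 had a GC content of 75.5%, BAIAP2 72.9%, BAIAP3 71.9% and ADGRB1 68.7%. ADGRB2 had 63.2%, RAC1 62.6%, ADGRB3 56.5% and RAC2 50.4%. The values of the groups do not overlap, and the median of all protein-coding genes was 55.0% and that of the 440 genes with a peak 65.0%. No test was made, since genes picked for a peak or its absence are not replicates. Of 949 protein-coding genes with at least the GC content of ADGRB1, 139 (14.6%, Wilson interval 12.5 to 17.0%) had a peak within 2 kb of the TSS, against 2.20% of all protein-coding genes. ADGRB1 itself had none at this distance.

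The separation was lost when only the richest stretch was considered. The richest 300 bp within 2 kb of the TSS had a GC content of 87.3% at RAC3, 86.3% at ADGRB1, 84.0% at BAIAP2 and 81.7% at BAIAP3. Among the paralogues it was 85.3% at ADGRB2 and 82.3% at RAC1, both above BAIAP3, and 79.7% at ADGRB3. RAC2, at 61.7% around its outermost 5′ end and 70.0% around its canonical start, was the lowest. Within 1 kb of the outermost 5′ end it had 56 CpG sites, against 131 at ADGRB3, 141 at ADGRB2 and 168 at RAC1. The genes with peaks had 156 at ADGRB1, 188 at BAIAP3, 207 at BAIAP2 and 230 at RAC3, so that ADGRB1 lay below RAC1. Around the canonical start ADGRB1 had 161 sites and ADGRB2 169, which turned the order of these 2 genes around. Of the 1451 protein-coding genes within 1 percentage point of RAC1 in this measure, 6.75% had a peak, of the 616 near ADGRB2, 13.8%, and of the 1828 near ADGRB3, 2.02%. The same share was 25.4% near RAC3, 19.8% near ADGRB1, 11.0% near BAIAP2 and 5.46% near BAIAP3, so that BAIAP3 lay below RAC1 and BAIAP2 below ADGRB2. Of the 857 near the value of RAC2 at its outermost 5′ end, none had one (Wilson upper limit 0.446%). The share near its value at the canonical start is not given here. The median of this measure over the 440 genes with a peak was 83.3%, above RAC1 and ADGRB3 and below ADGRB2.

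At ADGRB1 the search for the richest stretch ended 2 kb from the TSS and so could not include its peaks, which lie farther away. Within this range the stretch was centred 399 bp after the TSS. The nearest peak coincided with another rise of GC content in the first intron. In windows of 200 bp, GC content was 85.0% at 3600 bp after the TSS, overlapping this peak, and 84.5% at 400 bp. At BAIAP3 the richest stretch was centred 54 bp after the TSS and overlapped no peak. At RAC3 it was centred 66 bp before the TSS, mostly in the gap between the peaks, and at BAIAP2 386 bp after the TSS, within the peak.

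**Figure D3:**
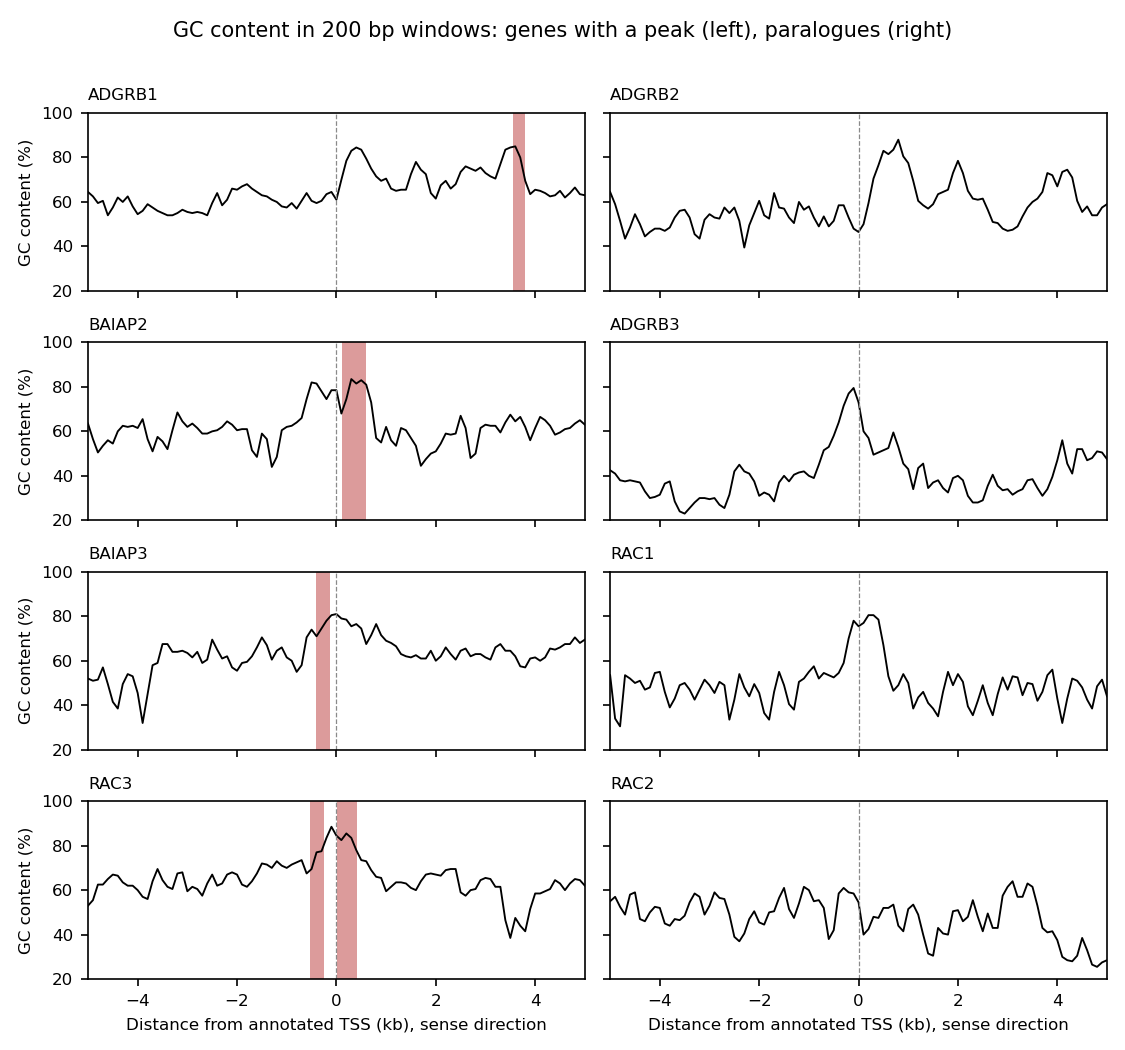
GC content in percent (vertical axis) in windows of 200 bp is plotted against distance from the annotated TSS in kb (horizontal axis) for the 4 genes with peaks (left) and the 4 paralogues (right), with the TSS dashed and the peaks shaded red. RAC1 and ADGRB3 have a rise at the TSS, ADGRB2 has a rise after it and further ones downstream, RAC2 has no such rise, and at ADGRB1 the shaded peak falls on a rise in the first intron rather than on the rise at 399 bp.

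The fourth question was whether other genes of the same pathway had peaks. The background for this is the 2.20% of protein-coding genes with a peak within 2 kb of the TSS (Wilson interval 2.00 to 2.41%). Among 109 further genes of the lists below, each counted once, 8 had a peak (7.34%, Wilson interval 3.77 to 13.8%). The lists were not tested, and they were composed with earlier results of these data known. Counting BAIAP2, BAIAP3 and ADGRB1 where they are listed, the promoters were on the whole richer in GC than average. Medians for the richest 300 bp lay between 73.0% for the adhesion receptors and 81.7% for the I-BAR genes, against 72.0% for all protein-coding genes.

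Of the 20 activators of Rac, 3 had a peak, the exchange factor genes DOCK3 (416 bp, 79.6% GC), DOCK5 (398 bp, 81.9% GC) and VAV2 (311 bp, 77.2% GC). The peaks had their midpoints 291, 17 and 271 bp after the TSS. ELMO1 and DOCK1, which link ADGRB1 to Rac, had none.

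Of 16 inhibitors of Rac, 1 had a peak, the GTPase activating protein gene ARHGAP32 (380 bp, 80.8% GC), with the midpoint 332 bp before the TSS. None of the 20 effectors did, among them the WAVE complex, PAK and IQGAP genes, for which the Wilson upper limit is 16.1%. Among the relatives of BAIAP2 with an I-BAR domain, 1 of 4, MTSS1, had a peak (392 bp, 79.8% GC, midpoint 148 bp before the TSS). None of the 6 relatives of BAIAP3 in the MUNC13 list had one. Of 30 adhesion receptor genes other than ADGRB1, 1 had a peak, ADGRL1 (latrophilin 1; 242 bp, 78.1% GC, midpoint 514 bp after the TSS), a share of 3.33% close to the background.

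Among ligands and binding partners of ADGRB receptors, 2 of 14 genes other than BAIAP2 and BAIAP3 had a peak, and with the start of any transcript RTN4R, a receptor of the neurite outgrowth inhibitor Nogo, was added. C1QL1, a secreted ligand of ADGRB3, had one of 459 bp with 79.3% GC, 385 bp after the TSS. GNA13, the G protein α subunit, had one of 374 bp with 75.1% GC, 215 bp before the TSS.

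The last question was what surrounds the peaks. All 7 lay within 2.69 Mb of a chromosome end, from 1.23 Mb at RAC3 to 2.69 Mb at the first ADGRB1 peak. Of all 546 peaks, 95 (17.4%, Wilson interval 14.5 to 20.8%) lay at most as far from an end as the first ADGRB1 peak, as did 1623 of the 20033 protein-coding TSS (8.10%). The limit was taken from the farthest of the 7 peaks, so all 7 lie within it by construction, and several of them share a chromosome end. The TSS of RAC1 is 6.37 Mb, that of RAC2 13.6 Mb, that of ADGRB2 31.8 Mb and that of ADGRB3 68.6 Mb from the nearest end. BAIAP2 and RAC3 are neighbours on the long arm of chromosome 17. Within 1 Mb of the BAIAP2 TSS there were 7 peaks off the gene, the 2 of RAC3 among them, and within 1 Mb of the RAC3 TSS 6. Between the genes lay the peaks at MCRIP1 and at P4HB, a protein disulphide isomerase, and a peak with its midpoint 2076 bp from the TSS of NOTUM, a secreted Wnt inhibitor, and 71.9 kb before that of RAC3. BAIAP3 had 4 other peaks within 1 Mb, of which 2 formed the pair at CACNA1H about 180 kb away. ADGRB1 had 3, at TSNARE1, LY6K and MAFA, the first of them 46.4 kb before its TSS.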

How the data were processed

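ChIP-Seq of γ-H2AX and of total H2AX came from TRAIP-mAID cells of the HCT116 line, given IAA or not, 2 repeats each. Per the labels and methods, the authors aligned single-end reads to hg38 with Bowtie2 2.4.2, called γ-H2AX peaks with IAA against without IAA in each repeat with MACS2 2.1.1, and intersected the repeats with bedtools. The deposited list holds positions only. A pair of peaks may be 2 peaks in both repeats or a wider peak of 1 repeat divided by the intersection, which the list does not show.

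Starts were read as 0-based, and positions are printed 1-based. The list was compared with GENCODE 44 (20033 protein-coding genes) and the hg38 sequence. A TSS is the outermost annotated 5′ end of a gene. Overlap of 1 bp counted. Gene identities, exons and composition came from these files with Python 3.11.15, pysam 0.24.0, scipy 1.17.1 and samtools 1.23.1, and copies from blastn 2.17.0. The overlap, distance and composition steps were tested on simulated data. The genes and lists were chosen with earlier results of these data known. Named are the 4 genes, the 4 paralogues, list genes with a peak, genes within 2 kb of a described peak, and, among genes with 2 or more peaks within 2 kb of the TSS, the 5 whose smallest gap was nearest to that of RAC3 and the 5 nearest to that of ADGRB1; further genes give orientation only and were chosen after their values were seen. No test was made, as the list has no value per sample. Of 32 adhesion receptor symbols, 31 were matched in the annotation. A gene list and a reference stretch are not reported here.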

Additional observations from a re-analysis of the deposited data

How the results depend on the processing

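The number of peaks per gene depended on how peaks were assigned. With the gene body extended by 2 kb, ADGRB1 had 2 peaks and BAIAP2 had 2, and with a window of 5 kb BAIAP2 also had 2. With peaks within 1 kb merged, RAC3 had 1. Measured from the canonical start, the ADGRB1 midpoints were at 3462 and 61489 bp, and from the nearest start of any own transcript at 3432 and 32018 bp, against 3681 and 61708 bp from the outermost 5′ end. From the nearest own transcript start, the offset of the BAIAP2 gene body peak turned to -2356 bp and that of the downstream RAC3 peak to -175 bp, because a later start is annotated downstream of the former and inside the latter. The RAC3 peaks were 602 bp apart from midpoint to midpoint. The BAIAP2 peak at the TSS had 83.0% GC in its central 300 bp. With the start of any transcript, 2.57% of protein-coding genes had a peak within 2 kb. Around the canonical start, promoter GC content was 61.1% for RAC2 and 66.2% for ADGRB2, still below the 69.5% of ADGRB1. With a window of 5 kb, 2 adhesion receptor genes had a peak, ADGRB1 being added. The richest 300 bp was also taken around the canonical start, a choice made after seeing the data, which moved RAC2 to 70.0% and left the other 7 genes at the same value. The other 78 of 95 alternatives changed no direction and were counted as unchanged under the limits set. Among them are the GC skews, although their size depended on the window.

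No paired analysis was possible because the positions are those shared by the repeats, with nothing measured in either one. Leaving out a repeat and a stricter threshold were not run, since neither can be done with positions only.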
